A study of Mus musculus with 2 samples.

Results

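Fras1, Frem1, Frem2 and Grip1, the 4 mouse genes of the Fraser complex, were read out in single cells of embryonic limb muscle at E12.5 and E15.5, where E stands for the embryonic day. They are 4 of the 32285 genes listed in each count matrix, found by symbol, and each of them had UMIs in both libraries. A UMI (unique molecular identifier) stands for 1 captured RNA molecule. The genes were selected on their levels in muscle and mesenchymal cells at E12.5 and on how these compare with E15.5, so every level and ratio below is a description and none of it is a test. Each age is 1 droplet library (10x Chromium, version 3.1 of the 3-prime kit) from limb skeletal muscle of wild-type C57Bl/6 embryos, in which forelimbs and hindlimbs were mixed and cells were released mechanically and with trypsin. No allele, transgene or treatment is named for either library, and the labels do not say how many embryos went into each. With 1 library per age, differences between the ages and differences between the libraries cannot be told apart.

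The Fraser complex is an assembly of extracellular matrix proteins best known from the basement membrane beneath embryonic epithelia. FRAS1 and FREM2 are large membrane-anchored proteins, FREM1 is a secreted relative of them, and the presence of each in the basement membrane depends on the others. GRIP1 is a cytoplasmic scaffold protein with several PDZ domains that binds FRAS1 and is needed to bring it to the cell surface. Loss of these genes gives Fraser syndrome and related disorders in people and blistered embryos in mice. In limb development the family is mostly described in the surface ectoderm and the mesenchyme under it.

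All 4 genes are long. On mouse genome build GRCm38 (GENCODE vM21), Fras1 (ENSMUSG00000034687) lies on the plus strand of chromosome 5, from 96373955 to 96784728, spans 411 kb and has up to 74 exons in a transcript. Frem1 (ENSMUSG00000059049) lies on the minus strand of chromosome 4, from 82897920 to 83052339, and spans 154 kb with up to 37 exons. Frem2 (ENSMUSG00000037016) lies on the minus strand of chromosome 3, from 53513938 to 53657355, and spans 143 kb with up to 24 exons. Grip1 (ENSMUSG00000034813) lies on the plus strand of chromosome 10, from 119453830 to 120087261, and spans 633 kb with up to 25 exons. No annotated gene overlaps Frem1 or Frem2. Fras1 has 3 overlapping genes and Grip1 has 9, and Helb, on the strand opposite to Grip1, had 31 UMIs in the muscle class at E12.5 and 61 at E15.5. Whether the authors' counting used the strand is not given in the sources used here.

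Upstream sequence was available for 3 of the 4 genes, in 6 RefSeq windows (GRCm38.p6). The window of Frem2, of the 4 genes the one that differed most between muscle and its surroundings, is shown with a window of Frem1, the gene with the opposite pattern within muscle. Each window shown covers the 250 bases before an annotated transcript start, reads 5′ to 3′ on the gene's strand, and holds no base of an annotated exon of its gene. Capitals mark matches to the motifs searched.
Frem2, chr3:53657356-53657605, minus strand: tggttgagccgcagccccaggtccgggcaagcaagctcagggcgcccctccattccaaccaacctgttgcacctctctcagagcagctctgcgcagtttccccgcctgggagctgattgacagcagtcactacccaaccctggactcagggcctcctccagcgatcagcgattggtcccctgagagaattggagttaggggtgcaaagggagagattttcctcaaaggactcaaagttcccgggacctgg
Frem1, chr4:83021103-83021352, minus strand: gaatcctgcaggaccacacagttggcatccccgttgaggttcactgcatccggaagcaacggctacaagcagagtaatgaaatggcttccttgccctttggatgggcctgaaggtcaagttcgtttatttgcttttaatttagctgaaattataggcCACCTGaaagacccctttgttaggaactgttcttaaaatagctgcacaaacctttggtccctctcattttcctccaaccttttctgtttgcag
Both strands were searched for CAGCTG and CAGGTG, E-boxes of the kind bound by myogenic factors, for TCAGGTT, the MEF3 motif, and for a palindromic paired homeodomain motif of PAX3 and PAX7. The Frem2 window held none of the 4 motifs. The Frem1 window shown, which lies inside the Frem1 gene before the start of a shorter transcript, held 1 match to CAGGTG on the other strand, 93 to 88 bases before the start. The first window of Grip1, chr10:119453784-119454033, also held 1, 160 to 155 bases before the start. Of the 250 bases of that window, 204 lie in annotated Grip1 exons, and the match lies inside the annotated gene. The other 3 windows held none, among them the Frem1 window at the annotated 5′ end of the gene, chr4:83052167-83052416. CAGCTG was found in 13.0% of all 32851 windows, CAGGTG in 17.2%, TCAGGTT in 3.49% and the homeodomain motif in 0.0304%, so a match or its absence in a few windows is a description of these letters.

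The E12.5 library held 12941 barcodes and 34907675 UMIs, and the E15.5 library held 5780 barcodes and 46966083 UMIs. After filters on genes, mitochondrial share and doublets, 11001 cells with a median of 2322 UMIs remained at E12.5 and 3916 with a median of 9333.5 at E15.5. The libraries shared 17 deposited barcodes, 10 of them among the kept cells. Cells were clustered without the 4 genes, and clusters were named from marker lists, so that every class name here means "like" that type. The muscle-like class, with all 13 of its markers detected at both ages, comprised 616 of the kept cells in the younger library (5.60%) and 400 in the older (10.2%). Most cells kept from this tissue labelled as muscle were thus of other classes. The connective tissue-like class, which holds mesenchyme of the limb but not the unnamed clusters, had 8357 and 1677 cells. Levels are given as counts per 1000000 UMIs of the class (CPM), with exact 95% Poisson intervals in brackets. They cover counting error only, and no replicate spread can be given.

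Frem2, which encodes a membrane-anchored partner of FRAS1, was largely a gene of muscle at E12.5. It had 196 UMIs in the muscle class, 77.8 CPM (67.3 to 89.5), against 56 UMIs and 2.73 CPM (2.06 to 3.54) in connective tissue. The log2 ratio of muscle over connective tissue was 4.84 (4.40 to 5.29), which is 28.5-fold (21.1 to 39.1), where 5.23% of the 8989 genes with a mean of at least 10 CPM were at least 2-fold higher in muscle. The muscle class held 69.8% of all Frem2 UMIs in kept cells with 8.94% of their total UMIs. The chondrocyte-like class had 18 Frem2 UMIs, 8.83 CPM (5.23 to 13.9), above the interval of connective tissue but overlapping that of endothelial cells. Endothelial-like cells served as the measure of free RNA, and there Frem2 had 1 UMI, 1.62 CPM (0.0410 to 9.02), and the connective tissue level was within that interval. The erythroid-like cells had 0 UMIs, which allows up to 22.1 CPM.

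Grip1, the scaffold, was also higher in muscle than in connective tissue at E12.5, by just under 2-fold. Muscle had 82 UMIs, 32.6 CPM (25.9 to 40.4), and connective tissue had 340, 16.6 CPM (14.8 to 18.4). The log2 ratio was 0.98 (0.61 to 1.33), and it was past 2-fold relative to the median gene (1.17) and to the median of genes of at least 100 kb (1.36). Chondrocyte-like cells had 13.2 CPM (8.72 to 19.3), an interval that overlaps that of connective tissue. Endothelial cells had 0 Grip1 UMIs, which allows up to 4.86 CPM, so that the levels of muscle, connective tissue and chondrocyte-like cells were all above that limit.

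Fras1 and Frem1 showed the reverse order at E12.5, with connective tissue above muscle. Fras1 had 894 UMIs in connective tissue, 43.5 CPM (40.7 to 46.5), and 67 in muscle, 26.6 CPM (20.6 to 33.8), a log2 ratio of muscle over connective tissue of -0.71 (-1.09 to -0.35). Frem1 had 760 UMIs in connective tissue, 37.0 CPM (34.4 to 39.7), and 60 in muscle, 23.8 CPM (18.2 to 30.7), a ratio of -0.64 (-1.04 to -0.25). Neither was 2-fold lower in muscle, as 1122 of the 8989 genes were. The median of all genes was -0.19, and that of genes spanning at least 100 kb was -0.38. Relative to the latter the ratios were -0.33 for Fras1 and -0.25 for Frem1, with intervals that include 0. Connective tissue held 86.2% of all Fras1 UMIs and 81.5% of all Frem1 UMIs with 72.9% of the total. Chondrocyte-like cells were lower, with 7.35 CPM (4.12 to 12.1) of Fras1 and 16.2 CPM (11.1 to 22.7) of Frem1, and endothelial cells had 1 and 3 UMIs, or 1.62 and 4.86 CPM. The chondrocyte-like and endothelial intervals overlap for both genes. A cluster of 26 immune-like cells had 5 UMIs of Fras1, 55.9 CPM (18.2 to 130), and 4 of Frem2, 44.7 CPM (12.2 to 115). That Frem2 interval overlaps the one of muscle, 67.3 to 89.5 CPM. Immune-like cells had been planned as a further measure of free RNA. At least 3 epithelial markers were at least 2-fold above the other cells in that cluster, so it was not used for that.

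**Figure D1:**
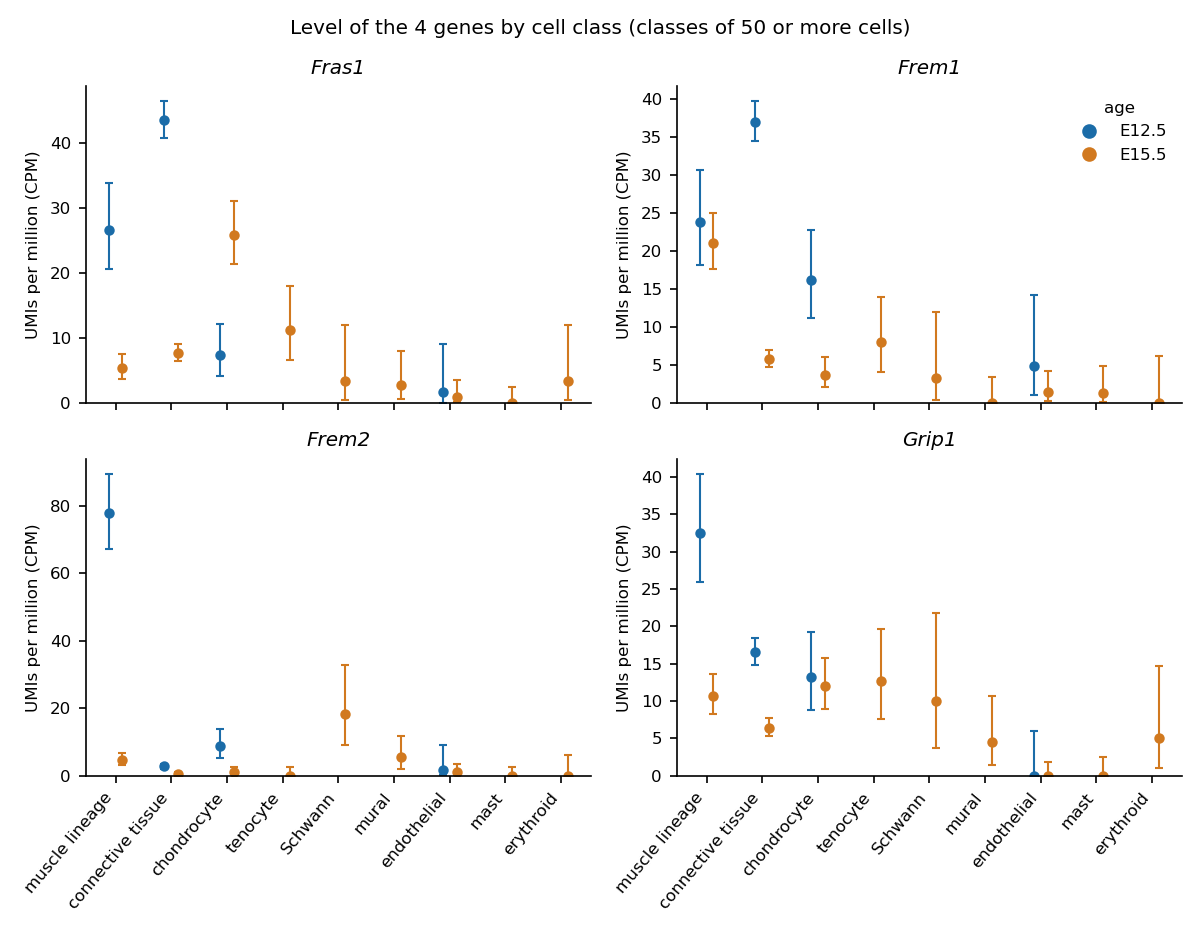
Level of each gene in CPM (vertical axis, linear, a separate scale per gene) in each class of 50 or more cells (horizontal axis), at E12.5 in blue and E15.5 in orange. Points are levels in the 1 library of each age and bars are exact 95% Poisson intervals. Frem2 stands out in E12.5 muscle at 77.8 CPM, Fras1 and Frem1 are highest in E12.5 connective tissue at 43.5 and 37.0 CPM, and at E15.5 Frem1 is highest in muscle at 21.1 CPM and Fras1 in the chondrocyte-like class, at 25.9 CPM, among the named classes.

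Within the muscle class at E12.5, Frem1 and Frem2 were found at opposite ends. Of the 4 muscle clusters, 1 of 264 cells and 1 of 168 were led by Msc and Pdgfa and carried Pax7, the transcription factor of muscle progenitors, at 177 and 158 CPM. The other 2, of 118 cells led by Rbm24 and Actc1 and of 66 cells led by Mylpf and Myl1, held 1 and 0 Pax7 UMIs and carried Myog, the transcription factor of differentiating myoblasts, at 1406 and 900 CPM. Frem2 was at 38.4 CPM (26.9 to 53.1) and 39.0 CPM (26.5 to 55.3) in the Pax7-bearing clusters. In the differentiating clusters it was at 143 CPM (109 to 183) and 190.0 CPM (148 to 241). The intervals of the Pax7-bearing clusters lie wholly below those of the differentiating clusters.

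Frem1 ran the other way through the same 4 clusters. It was at 46.9 CPM (34.1 to 63.0) in the Pax7-bearing cluster with the lower Myog level and at 18.9 CPM (10.6 to 31.1) in the other. It had 0 UMIs in the Actc1-led cluster, which allows up to 7.02 CPM, and 1 UMI in the Mylpf-led cluster, 2.79 CPM (0.0707 to 15.6). Fras1 lay between 23.4 and 39.1 CPM in all 4, with overlapping intervals. Grip1 lay between 25.6 and 58.7 CPM, and its interval in the Mylpf-led cluster, 36.3 to 89.7 CPM, overlapped those of the other 3.

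A split by the UMIs of Pax7 and Myog themselves, which were kept out of the clustering, gave 176 cells at E12.5 with Pax7 only, 242 with Myog only, 19 with both and 179 with neither. Frem2 had 16 UMIs in the Pax7 only cells, 21.9 CPM, and 147 in the Myog only cells, 140 CPM (118 to 165). Cells with both had 60.5 CPM (24.3 to 125) and cells with neither had 41.6 CPM (27.2 to 61.0). The log2 ratio of Myog only over Pax7 only cells was 2.68 (1.93 to 3.52), against 9.79% of 8481 genes at least 2-fold higher. In male and female cells taken apart, by Y-linked and Xist UMIs, the ratio was 1.83 and 3.64. The median depth was 3814.5 UMIs in Pax7 only and 3818 in Myog only cells, and 6 and 18 cells of these groups had under 2000 UMIs.

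In the same split Frem1 had 36 UMIs in the Pax7 only cells, 49.3 CPM (34.5 to 68.3), and 2 in the Myog only cells, 1.91 CPM (0.231 to 6.89). The log2 ratio was -4.69 (-7.79 to -2.73), where 12.0% of the genes were at least 2-fold lower, and the Myog only level was no higher than the 4.86 CPM of endothelial cells. Fras1 was at 27.4 and 26.7 CPM, a ratio of -0.04 (-0.92 to 0.87), and Grip1 at 30.1 and 41.0 CPM, a ratio of 0.44 (-0.33 to 1.26). Both of these intervals include 0.

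**Figure D2:**
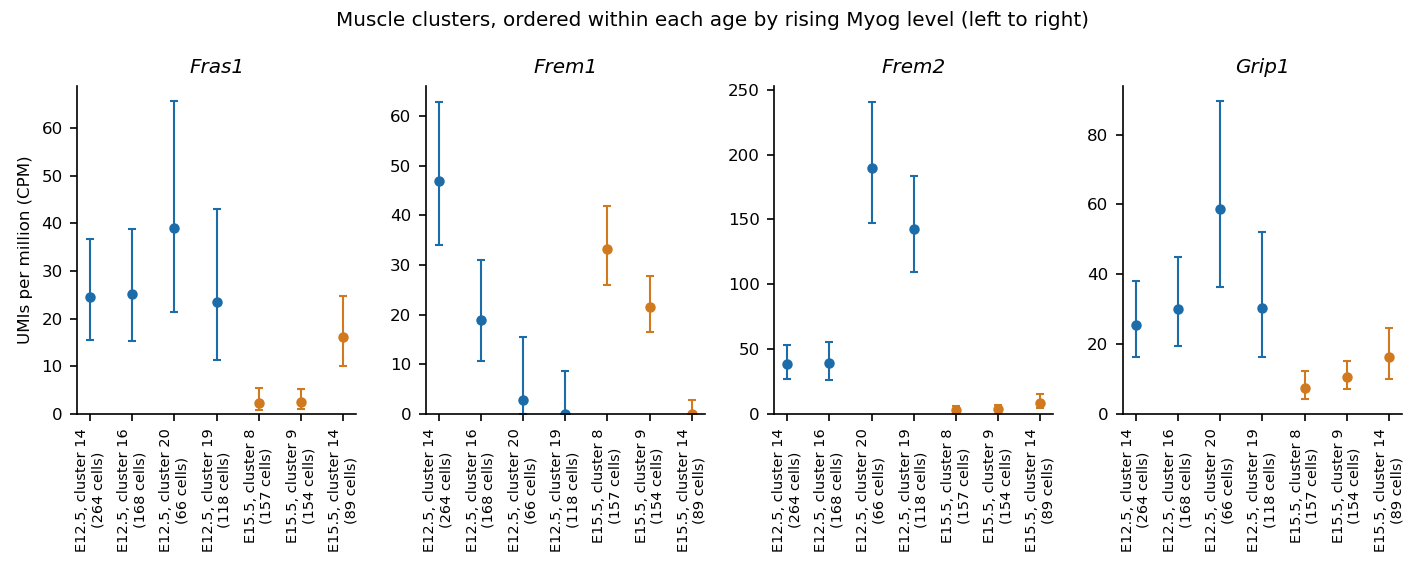
Level of each gene (CPM, vertical axis, linear, a separate scale per gene) in the 4 muscle clusters of E12.5 (blue) and the 3 of E15.5 (orange), ordered within each age by rising Myog level. Points are levels and bars exact 95% Poisson intervals. Frem1 is at or near 0 in the clusters with the most Myog at both ages, and Frem2 is at 143 and 190.0 CPM in the same clusters at E12.5.

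The barcodes that carried the genes were then examined one by one. Of the 616 muscle cells at E12.5, 357 had no UMI of the 4 genes, 204 had UMIs of 1, 45 of 2, 10 of 3 and none of all 4. Frem2 was seen in 138 cells, with at most 8 UMIs in a cell, Grip1 in 75, Fras1 in 59 and Frem1 in 52. Frem2 and Grip1 shared 24 barcodes, which is 17.4% of the Frem2 barcodes and 32.0% of the Grip1 barcodes. Fras1 and Frem2 shared 20, Fras1 and Grip1 shared 12, and Frem1 and Frem2 shared 8, or 15.4% of the Frem1 barcodes and 5.80% of the Frem2 barcodes. In connective tissue 6692 of 8357 cells had none of the genes, and the most frequent pair was Fras1 and Frem1, in 92 barcodes, or 12.1% and 13.3% of their barcodes. At an equal depth of 2000 UMIs per cell the pairs were rarer: Frem2 and Grip1 shared 6 muscle barcodes, Fras1 and Frem2 shared 2, Frem1 and Frem2 shared 2 and Fras1 and Grip1 none, and in connective tissue Fras1 and Frem1 shared 31.

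This thinning of each cell to 2000 UMIs left out 57 muscle cells and 3163 connective tissue cells at E12.5. Frem2 was then seen in 60 of 559 muscle cells, or 10.7% (exact binomial interval 8.29 to 13.6), and in 24 of 5194 connective tissue cells, or 0.462% (0.296 to 0.687). Before thinning the shares were 22.4% and 0.646%, at median depths of 3745 and 2279 UMIs. Endothelial cells, with a median of 3871.5 UMIs, had it in 0.769% before thinning and in 0.855% (0.0216 to 4.67) after, an interval that includes the share in connective tissue. Grip1 was seen in 6.44% of muscle cells and 3.47% of connective tissue cells after thinning, and in 0 of 117 endothelial cells, which allows up to 2.56%. Frem1 was seen in 4.11% and 6.91%, and Fras1 in 3.94% and 7.60%, each against 0.855% of endothelial cells.

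Thinned muscle barcodes with a Frem2 UMI were rich in differentiation genes. The 60 barcodes had Myog at 1108 CPM against 366 CPM in the other 499, and Pax7 at 58.3 against 139 CPM. Mymk, the membrane protein that drives myoblast fusion, was at 267 against 91.2 CPM, and Mymx, its partner in fusion, at 317 against 101 CPM. The 23 barcodes with a Frem1 UMI showed the opposite: Pax7 was at 239 against 126 CPM and Myog at 43.5 against 463 CPM. Mymk, Mymx, Myh3 and Acta1, which mark fusing and differentiating cells, had 0 UMIs in them, and in the other 536 barcodes they were at 115, 130, 769 and 203 CPM. The 22 Fras1 barcodes had Myog at 455 against 445 CPM and Pax7 at 159 against 129 CPM, and the 36 Grip1 barcodes had Myog at 375 against 450 CPM.

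Markers of epithelium, beneath which the complex is best known, were followed in the same barcodes. Their summed level in the muscle class was 30.2 CPM (23.8 to 37.8) at E12.5, with Krt14, Krt15 and Cdh1 at 0 of the 8 markers, and 31.5 CPM (29.1 to 34.0) in connective tissue. Muscle barcodes with Frem2 had 1 epithelial UMI in 60 thinned cells, 8.33 CPM (0.211 to 46.4), against 26.1 CPM in the rest. In connective tissue the 24 thinned Frem2 barcodes had 16 epithelial UMIs, 333 CPM (191 to 541), against 30.1 CPM (26.8 to 33.6) in the rest. The 395 Fras1 barcodes there had 73.4 CPM (55.7 to 94.9) against 28.0 CPM, while Frem1 barcodes had 19.5 against 32.4 CPM and Grip1 barcodes 19.4 against 31.9 CPM. Without every cell that had an epithelial UMI, the muscle class kept 558 cells at E12.5 and connective tissue 7829, and none of the ratios recomputed on these cells lay outside its first counting interval.

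The connective tissue clusters of E12.5 differed among themselves in Fras1 and Frem1. Fras1 was highest in a cluster of 810 cells led by Shisa2, Tbx18 and Gas2 with Tbx4 and Pitx1, the hindlimb transcription factors, among its leading genes, at 99.6 CPM (84.9 to 116). A cluster of 229 cells led by Aspn and Tbx3 had 98.4 CPM (73.2 to 129). The lowest level was 21.8 CPM (16.7 to 28.0) in the largest cluster, of 1362 cells led by Gdf5 and Sfrp2. The intervals of the upper 2 were apart from those of the other 10 clusters. Not counted in this class were 2 unnamed clusters, of 688 cells led by Runx3 and Runx2 and of 447 led by Dcc and Thbs4. Fras1 was at 18.7 CPM (12.4 to 27.3) in the Runx3-led and 34.9 CPM (23.2 to 50.5) in the Dcc-led cluster. Frem1 was at 41.7 CPM (31.8 to 53.6) and 18.7 CPM (10.5 to 30.8) there.

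Frem1 was also highest in the Shisa2-led cluster, at 58.1 CPM (47.0 to 71.0), followed by 52.5 CPM (43.5 to 62.9) in a cluster led by Aldh1a2 and Cxcl12, and these 2 overlap. It did not follow Fras1 into the Aspn-led cluster, where it was at 21.2 CPM (10.6 to 38.0), and its lowest level was 12.7 CPM (4.65 to 27.6) in a cluster led by Hoxa11os and Chrdl1, with Hoxa13 and Hoxa11, the genes of the distal limb, among its leading genes. Frem2 lay between 0.662 and 6.33 CPM and Grip1 between 12.1 and 25.1 CPM over the 12 clusters, and the lowest and highest clusters of each overlap in their intervals. Barcodes of connective tissue with a Fras1 UMI, thinned to the same depth, had fewer chondrocyte marker UMIs (1318 against 2100 CPM) than those without.

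**Figure D3:**
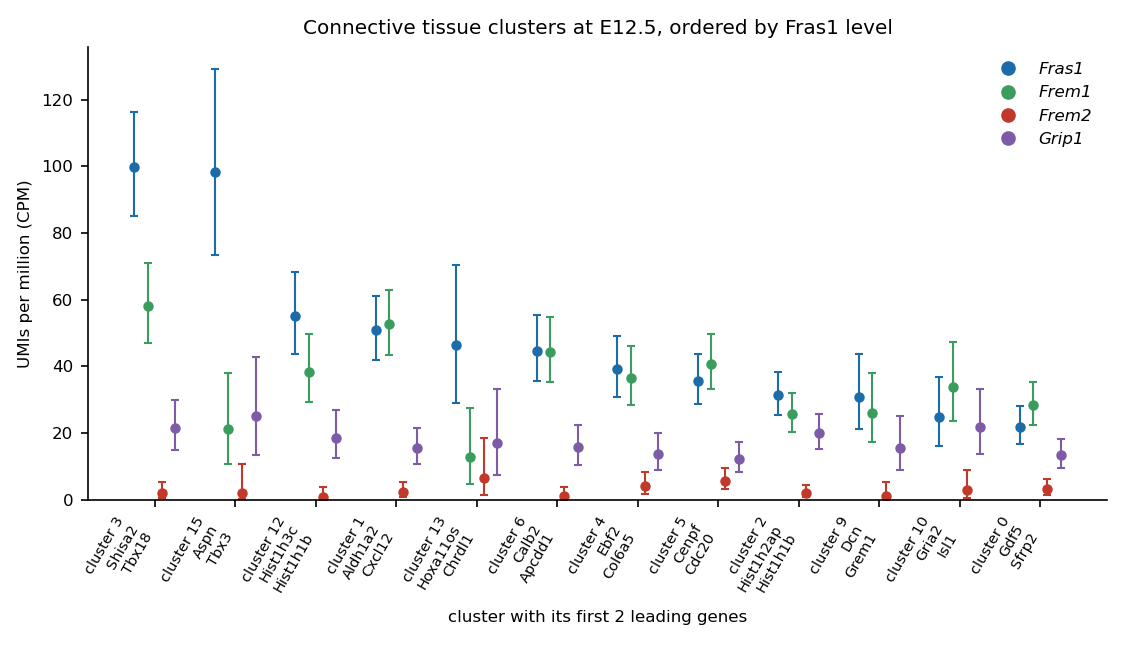
Level of the 4 genes (CPM, vertical axis, linear) in the 12 connective tissue clusters of E12.5, ordered by Fras1 and labelled with their first 2 leading genes. Points are levels and bars exact 95% Poisson intervals. Fras1 reaches 99.6 and 98.4 CPM in the Shisa2-led and Aspn-led clusters, Frem1 is at 58.1 CPM in the first and 21.2 CPM in the second, and Frem2 is at most 6.33 CPM in any of them.

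Across the 21 clusters of at least 50 cells at E12.5, the genes with the most similar pattern to each member were named by Pearson's r on log2 CPM among 9217 genes. For Frem2 they were Synpo2l, Actc1, Pgam2, Kremen2 and Arpp21, with r from 0.97 to 0.98. For Fras1 they were Tcp11l1, Pgap1, Shisa2, Fbxo34 and Lpar1 (0.80 to 0.84), for Frem1 Gsto1, Med23, Hadh, Fbxl19 and Zc3h4 (0.86 to 0.90), and for Grip1 Smarcd3, Dclk1, Gpt2, Cdk14 and Myof (0.84 to 0.89). Between members r was 0.63 for Frem2 and Grip1, 0.51 for Fras1 and Grip1, 0.44 for Fras1 and Frem1 and -0.59 for Frem1 and Frem2. The clusters come from 1 library and 12 of them are of connective tissue, so these values describe the pattern and carry no test.

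At E15.5 the muscle class had a far lower level of Frem2. Frem2 was at 4.54 CPM (3.02 to 6.57) with 28 UMIs, against 77.8 CPM at E12.5. The log2 ratio was -4.10 (-4.72 to -3.52), or 17.1-fold (11.5 to 26.4). Over 14 alternatives it ran from -5.45, with 65 male cells at E15.5, to -3.33. The E15.5 interval of Frem2 in muscle overlaps that of endothelial cells, 0.958 CPM (0.116 to 3.46). For Fras1, Grip1 and Frem1 the muscle interval at E15.5 lies above the endothelial one. Fras1 was at 5.35 CPM (3.69 to 7.52) with 33 UMIs against 26.6 CPM, a ratio of -2.31 (-2.96 to -1.69). Grip1 was at 10.7 CPM (8.28 to 13.6) with 66 UMIs against 32.6 CPM, a ratio of -1.60 (-2.09 to -1.12). Frem1 was at 21.1 CPM (17.6 to 25.0) with 130 UMIs against 23.8 CPM, a ratio of -0.18 (-0.63 to 0.29), whose interval includes 0 and stays within 2-fold, and which is 0.17 relative to the median gene. Of 8181 genes with a mean of at least 10 CPM, 15.4% were at least 2-fold lower and 2.86% at least 2-fold higher at E15.5. Since the genes were chosen with these levels known, nothing is read from 3 of the 4 being lower.

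The span of a gene moved with its change between the libraries. In muscle the median log2 ratio was 0.20 for 1849 genes under 10 kb, -0.40 for 5197 genes of 10 to 100 kb and -0.77 for 1132 genes of at least 100 kb, and 35.6% of the last were at least 2-fold lower. Endothelial cells had medians of 0.28, -0.34 and -0.61, so the order was not particular to muscle. All 4 members span over 100 kb. Relative to the median of the long genes in muscle, the ratios were -3.33 for Frem2, -1.54 for Fras1, -0.83 for Grip1 and 0.60 (0.14 to 1.06) for Frem1. The part of gene span, and of the different depth of the libraries, in these differences was not tested. In muscle cells thinned to 2000 UMIs, Frem2 was seen in 3 of 391 cells at E15.5, or 0.767% (0.159 to 2.23), against 10.7% at E12.5. Fras1 was seen in 1 cell (0.256%), Grip1 in 1.79% and Frem1 in 3.07%. Of 131 thinned endothelial cells at E15.5, 1 had Frem1 (0.763%) and none had the other 3 genes, which allows up to 2.29%. The muscle shares of Frem2, Fras1 and Grip1 lie below that limit. In the endothelial class 13.5% of 8326 genes were at least 2-fold lower and 5.62% at least 2-fold higher at E15.5, and none of the 4 genes had a mean of 10 CPM there.

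The lower Frem2 level was found within both muscle states as labelled by their UMIs. A label depends on a Pax7 or Myog UMI being seen, and the older cells were deeper. Median depth was 14578 against 3814.5 UMIs in Pax7 only cells and 13766 against 3818 in Myog only cells. The same label may thus select different cells at each age. With the split made anew at equal depth, the Frem2 log2 ratio in Myog only cells was -3.17. In Myog only cells (115 at E15.5) Frem2 was at 6.24 CPM (3.11 to 11.2) against 140 CPM at E12.5, a log2 ratio of -4.49 (-5.52 to -3.61), where 21.9% of 7867 genes were at least 2-fold lower and 4.31% at least 2-fold higher. In Pax7 only cells (197 at E15.5) it was at 3.28 CPM (1.57 to 6.03) against 21.9 CPM, a ratio of -2.74 (-4.04 to -1.51), where 16.9% of 8081 genes were at least 2-fold lower and 4.38% higher. In both states the E15.5 interval of Frem2 overlaps that of endothelial cells, 0.116 to 3.46 CPM. Grip1 was lower by a ratio of -1.59 in the Myog only cells and -1.43 in the Pax7 only cells. For Fras1 the ratios were -1.39 (-2.33 to -0.48) in Myog only cells and -4.06 (-5.83 to -2.60) in Pax7 only cells, from 28 to 18 UMIs and from 20 to 5. The E15.5 level of Fras1 in Pax7 only cells, 1.64 CPM, was within its endothelial interval, 0.116 to 3.46 CPM. Frem1 in Pax7 only cells went from 49.3 to 31.2 CPM (25.2 to 38.1), a ratio of -0.66 (-1.23 to -0.07). Relative to the median of genes of at least 100 kb that Frem1 ratio was 0.08 (-0.49 to 0.67), so its direction depends on the reference.

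The division of Frem1 along muscle differentiation was also seen at E15.5. It had 95 UMIs in Pax7 only cells and 9 in Myog only cells, or 31.2 and 5.10 CPM (2.33 to 9.69), a log2 ratio of Myog only over Pax7 only of -2.61 (-3.78 to -1.63), where 12.6% of 7585 genes were at least 2-fold lower. With these cells thinned to 2000 UMIs, Frem1 was seen in 6 of 196 Pax7 only cells (3.06%) and 1 of 110 Myog only cells (0.909%). When the split itself was made anew on the thinned counts, it gave 70 Pax7 only and 117 Myog only cells with 3 Frem1 UMIs each, and a ratio of -0.74 (-3.64 to 2.16). By cluster, Frem1 was at 33.2 CPM (26.0 to 41.9) and 21.6 CPM (16.5 to 27.9) in the 2 clusters led by Msc and had 0 UMIs in the Mylpf-led cluster of 89 cells, which allows up to 2.31 CPM. For Frem2 the ratio at E15.5 was 0.93 (-0.45 to 2.32), from 10 and 11 UMIs, and it was not detectable as a difference at this depth. Fras1 was at 1.64 CPM (0.533 to 3.83) in Pax7 only and 10.2 CPM (6.05 to 16.1) in Myog only cells, a ratio of 2.64 (1.15 to 4.42) from 5 and 18 UMIs. Its mean was under 10 CPM, so it is not among the genes of which 7.79% were at least 2-fold higher. Grip1 was at 11.2 and 13.6 CPM, with a ratio of 0.29 (-0.53 to 1.08).

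In the connective tissue class the levels of all 4 genes were lower at E15.5, where 18.0% of 9047 genes were at least 2-fold lower and 7.73% at least 2-fold higher. Differently led clusters fill this class at the 2 ages, the largest being led by Gdf5 at E12.5 and by Aldh1a3 at E15.5, and a tenocyte-like class was split off only at E15.5, and their part in the ratios was not tested. Fras1 was at 7.70 CPM (6.48 to 9.08), a log2 ratio of -2.50 (-2.76 to -2.24), and Frem1 at 5.79 CPM, a ratio of -2.68 (-2.98 to -2.38). Over the alternative clusterings and other settings these 2 ratios ran from -2.66 to -1.73 and from -3.06 to -1.96. Grip1 was at 6.39 CPM (5.29 to 7.66), a ratio of -1.37 (-1.69 to -1.07). Frem2, whose mean was under 10 CPM, was at 0.492 CPM (0.225 to 0.933) from 9 UMIs, within the interval of endothelial cells (0.958 CPM, 0.116 to 3.46). Muscle therefore stood above connective tissue in Frem1 at E15.5, with a log2 ratio of 1.86 (1.48 to 2.25), where 7.02% of 8375 genes were at least 2-fold higher in muscle and 19.7% at least 2-fold lower. At E12.5 the same ratio was -0.64. The other 3 had means under 10 CPM at E15.5, with ratios of 3.21 (2.08 to 4.48) for Frem2, 0.74 (0.29 to 1.19) for Grip1 and -0.52 (-1.12 to 0.03) for Fras1. One connective tissue cluster of 86 cells, led by Twist2, Stmn2 and Irx1, had Frem1 at 26.0 CPM (17.1 to 37.8), and the other 7 had at most 7.62 CPM.

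Fras1 was the exception in chondrocyte-like cells. It was at 25.9 CPM (21.3 to 31.2) with 112 UMIs at E15.5 against 7.35 CPM with 15 UMIs at E12.5, a log2 ratio of 1.82 (1.03 to 2.70), where 7.87% of 8887 genes were at least 2-fold higher and 12.8% at least 2-fold lower. The 2 clusters at E12.5 had 6.83 and 8.67 CPM and the 3 at E15.5 had 26.6, 21.7 and 30.9 CPM. Different clusters fill the class at the 2 ages: 549 of 689 cells at E12.5 were in a cluster led by Matn1 and Hapln1, and 348 of 551 at E15.5 in one led by Mia and Dkk3, with Sox9 and Gdf5. The Matn1-led cluster at E15.5, of 89 cells, is the one with 30.9 CPM (19.1 to 47.2). Clustering at a resolution of 2.0 brought the ratio to 0.94 (0.33 to 1.57). An unnamed cluster of 346 cells led by Nefm, Tac1 and Sfrp2 also had Fras1 at 30.2 CPM (23.9 to 37.6). In the chondrocyte-like class Frem1 was lower at E15.5, at 3.70 CPM (2.11 to 6.01), and Grip1 was at 12.0 against 13.2 CPM.

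**Figure D4:**
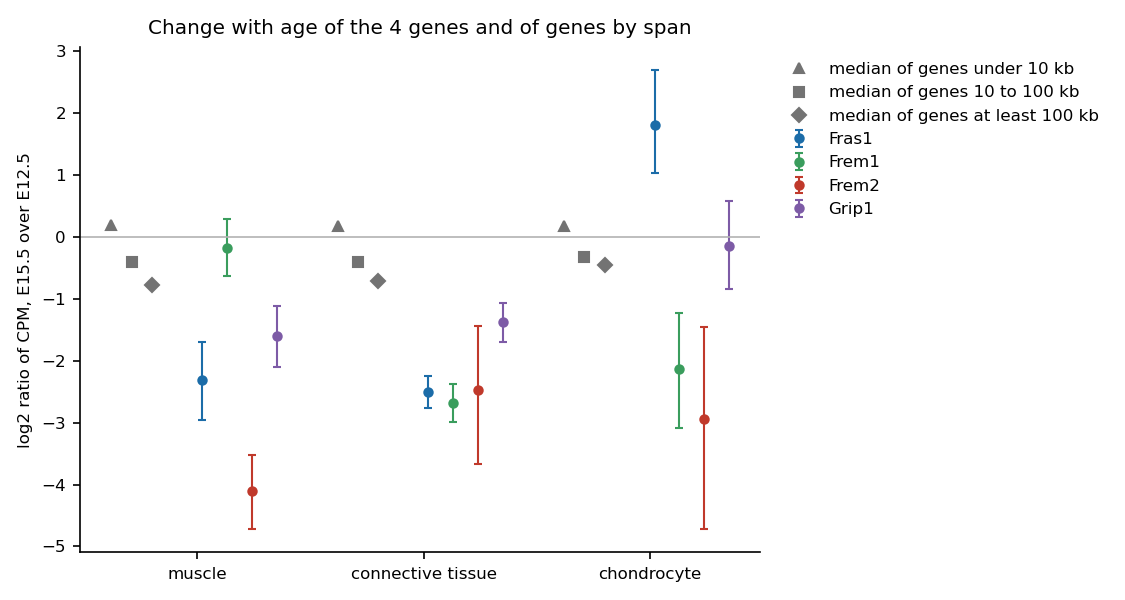
Log2 ratio of the CPM at E15.5 over E12.5 (vertical axis) for the 4 genes (coloured points with exact 95% intervals for counting error) in muscle, connective tissue and chondrocyte-like cells, beside the medians of all genes of 3 span groups (grey triangles, squares and diamonds). In muscle Frem2 is at -4.10 and Frem1 at -0.18 where the median of genes of at least 100 kb is -0.77, and Fras1 is at -2.31 in muscle, -2.50 in connective tissue and 1.82 in chondrocyte-like cells.

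Outside these classes several genes had levels above those of muscle at E15.5. In 147 tenocyte-like cells Fras1 was at 11.3 CPM (6.57 to 18.1) and Grip1 at 12.6 CPM (7.59 to 19.7), and both intervals overlap those of muscle. The unnamed cells together had 108 Fras1 UMIs, 31.0 CPM (25.5 to 37.5). The highest Frem2 levels were 18.3 CPM (9.13 to 32.7) in 51 Schwann-like cells and 17.1 CPM (7.37 to 33.7) in 43 melanocyte-like cells, from 11 and 8 UMIs. Both intervals lie above that of muscle, 3.02 to 6.57 CPM. These UMIs came from 8 Schwann-like and 5 melanocyte-like cells, with up to 3 in a cell. After thinning to equal depth, Frem2 was seen in 1 of 51 Schwann-like cells, 1.96% (0.0496 to 10.4). It was seen in 0 of 43 melanocyte-like cells, which allows up to 6.98%. The thinned share in muscle, 0.767% (0.159 to 2.23), lies within both ranges, so the difference was not seen at equal depth. Grip1 was at 19.2 CPM (8.79 to 36.5) in the melanocyte-like cells, an interval that overlaps that of muscle. A cluster of 25 cells led by Krtdap and Krt1, genes of differentiating skin, had 24 Fras1 UMIs, 56.3 CPM (36.1 to 83.7), 4 of Frem2 and 0 of Frem1. Immune-like cells had 0 UMIs of all 4 genes, which allows up to 4.72 CPM, and mast-like cells had 2 of Frem1 and 0 of the others.

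A list of 14 genes whose products bind, localise or resemble the Fraser complex was followed beside the members. Frem3, the remaining family member, had 0 UMIs in muscle at both ages. Of the 14, 6 had a mean of at least 10 CPM in muscle over both ages. At E15.5 Npnt, which encodes nephronectin, a basement membrane ligand of the integrin receptors, was at 22.1 CPM against 65.1, a log2 ratio of -1.56 (-1.90 to -1.22), and Efnb2, an ephrin of the family that binds GRIP proteins, was at 5.03 against 26.6 CPM, a ratio of -2.40 (-3.07 to -1.77). Thus 2 of the 6 were at least 2-fold lower and none higher, against 15.4% and 2.86% of all genes. The median of the 6 was -0.32 and that of all 8181 genes was -0.34. At E12.5, 9 were measured in the comparison of muscle with connective tissue: Npnt was higher in muscle (2.34; 65.1 against 12.9 CPM), Egfl6, Itga8, Cspg4, Efnb1, Efnb2 and Slit3, 6 of the 9, were at least 2-fold lower, and the median was -2.13 against -0.19 for all genes. Of all 8989 genes in that comparison 1122 were lower and 470 higher (5.23%). Itga8, which encodes the receptor subunit for nephronectin, was at 2.78 CPM in muscle and 23.9 CPM in connective tissue. Within E12.5 muscle, Npnt had 162 UMIs in the Myog only cells, 155 CPM, and 0 in the Pax7 only cells.

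A list of 18 basement membrane genes, of which Hspg2 was also on the partner list above, held members that were higher and members that were lower at E15.5. Of the 18, 14 were measured in muscle at both ages, 2 were at least 2-fold lower at E15.5 and 6 at least 2-fold higher, against 15.4% and 2.86% of all genes, with a median log2 ratio of 0.71 against -0.34. In Pax7 only cells 2 of 14 were lower and 7 higher, against 16.9% and 4.38% of all genes. The median there was 0.99 against -0.33 for all genes. In Myog only cells 4 of 14 were lower and 2 higher, against 21.9% and 4.31% of all genes. The median there was -0.29 against -0.40. Col18a1, Col4a1 and Lama5, which encode chains of collagen XVIII, collagen IV and laminin, had the highest ratios, of 1.74, 1.47 and 1.45. Col4a1 was at 349 against 126 CPM. Nid2, which encodes nidogen 2, had the lowest, -1.71 (25.1 against 82.2 CPM), followed by Lama2, a laminin chain of the muscle basement membrane, at -1.06, and Agrn, which encodes agrin, at -0.71.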

How the data were processed

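Single-cell RNA-seq was analysed from 2 libraries, 1 per age. The authors deposited raw UMI counts for each gene in each barcode. Per the file headers the matrices come from Cell Ranger 4.0.0. Per the submitters' processing notes the genome build was mm10, and Seurat 4.3.0 is named there without a role. The annotation release, the treatment of intronic reads and the cell calling settings are not given in the sources used here.

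Barcodes were kept from 500 detected genes upwards when mitochondrial genes gave under 10% of their UMIs, and simulated doublets (2 per cell, 0.8% expected per 1000 barcodes) removed 1270 barcodes (10.3%) at E12.5 and 190 (4.63%) at E15.5. Each library was clustered separately (Python 3.11.15, scikit-learn 1.9.0, leidenalg 0.10.2) on 2000 variable genes, 30 principal components, 15 neighbours and a Leiden resolution of 1.0. A total of 49 genes was kept out of the variable genes: the 4 members, the partner and basement membrane lists, the muscle state genes and the genes used to tell the sexes apart. A cluster took a class name when at least 3 markers of the class were at least 2-fold above the other cells and seen in 10% of its cells, and 1 was among its 10 leading genes. Remaining clusters were called connective tissue when at least 3 of its markers were 2-fold above the clusters of distant types, and 10.3% and 12.0% of cells stayed unnamed. Counts were summed per class, and the deposited counts give the depth.

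No test across samples is possible with 1 library per age. Poisson, binomial and conditional intervals are exact (scipy 1.17.1), at 95%, and cover counting error only. The conditional intervals were run on simulated Poisson counts, which follow the model that the intervals assume. That run says nothing about UMIs that cluster within single cells. The limit that a count of 0 allows was set at 3 counts. A gene counted as at least 2-fold different only with a mean of at least 10 CPM over the groups compared. Likeness used log2(CPM + 10). Of the 32285 gene identifiers, 32158 matched GENCODE vM21. All 4 members were described. From each list, all genes at least 2-fold different in muscle over age were named where there were 6 or fewer, and otherwise the 3 lowest and 3 highest. The partner genes lower in muscle than in connective tissue, the genes set beside member barcodes and the clusters named outside muscle were chosen after their values were seen. The members, lists and settings were chosen with earlier results of these data known. Alternatives changed the gene minimum, doublet removal, clustering, class definition, sex, depth, the mean filter and the reference of the ratios.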

Additional observations from a re-analysis of the deposited data

Results flagged for a closer look

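Fras1 differed between the ages in opposite directions in different classes. Its log2 ratio of E15.5 over E12.5 was 1.82 in chondrocyte-like cells, -2.31 in muscle and -2.50 in connective tissue, and the difference between the classes was not tested. The chondrocyte-like class is made of differently led clusters at the 2 ages, and the part of that in the difference was not tested.

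Frem1 in muscle had a log2 ratio of -0.12 in cells with Y-linked UMIs and no Xist and of 0.17 in cells with Xist and no Y-linked UMIs. The signs are opposite, the difference was not tested, and both values lie within the counting interval of the whole class.

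Barcodes left out of the main comparisons also carried Frem2. Those removed as doublets were put back only in the alternative without doublet removal. Barcodes removed as doublets had 6.10 CPM at E12.5 and 3.05 CPM at E15.5, and barcodes outside the limits on genes or mitochondrial share had 18.1 CPM at E12.5 and 4.43 CPM at E15.5. Each was above what a count of 0 would allow in those barcodes.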

How the results depend on the processing

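Of 281 alternative values for 22 results, 241 lay within the counting interval of the value reported, or for a count within 1.5 times it. Another 39 lay outside these limits, and 1 took the opposite sign of a ratio whose reported interval held a single sign. Sign changes of ratios with an interval of both signs were not counted as such. Among these, Frem1 with age ran from -0.31 to 0.60 in muscle and from -0.29 to 2.35 in Myog only cells. An alternative in which either group had no cells or no UMI of the gene gave no ratio and is not among the 281. No paired analysis was possible because each age has 1 library, and for the same reason no replicate could be left out. The depth limits Frem1 in differentiating cells at E12.5 (2 UMIs) and Frem2 and Fras1 in E15.5 muscle (28 and 33 UMIs). Unless given otherwise, ratios are log2, and the cause of a shift was not tested.

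Relative to the median of genes of at least 100 kb, the age ratios in muscle became -1.54 for Fras1, 0.60 for Frem1, -3.33 for Frem2 and -0.83 for Grip1. Muscle over connective tissue at E12.5 became -0.33 for Fras1, -0.25 for Frem1 and 1.36 for Grip1, and at E15.5 2.30 for Frem1. With age, Frem1 in Pax7 only cells changed sign to 0.078 and Frem2 in Myog only cells became -3.57. Connective tissue with age became -1.78 for Fras1 and -1.96 for Frem1, and relative to the median gene -2.17 and -2.35. The latter reference left 1 basement membrane gene lower in muscle, and dropping the filter on the mean gave 5 partner genes lower.

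The age ratio of Fras1 in connective tissue was -1.75 at resolution 0.5, -1.99 at resolution 2.0, -1.84 with the libraries clustered together and -1.73 with a marker gate in place of clusters. Resolution 2.0 gave 0.94 for Fras1 in chondrocyte-like cells, and clustering together gave 5.35 for Frem2 in muscle over connective tissue at E12.5. The gate gave -1.05 for Frem1 in the latter comparison and -3.05 for Frem1 with age in connective tissue. Cells with Y-linked UMIs only gave -0.18 for Frem1 in muscle over connective tissue at E12.5, -5.45 for Frem2 with age in muscle, 1.83 for Frem2 in Myog only over Pax7 only cells at E12.5 and -5.66 for Frem2 with age in Myog only cells. They also gave -2.11 for Fras1 and -2.05 for Frem1 with age in connective tissue and 2.97 for Fras1 in chondrocyte-like cells. The muscle values with age in cells with Y-linked UMIs only rest on at most 65 cells at E15.5. Cells with Xist only gave -1.09, 3.64 and -3.06 for Frem1 in muscle over connective tissue, Frem2 in Myog only over Pax7 only cells and Frem1 with age in connective tissue.

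Thinned to 2000 UMIs, Fras1 with age was -3.94 in muscle (1 against 22 UMIs) and -2.21 in connective tissue, and -1.13 in muscle over connective tissue at E12.5. Frem1 was then -0.74 in Myog only over Pax7 only cells, split anew on the thinned counts (3 UMIs each), and 1.47 in muscle over connective tissue at E15.5, and Frem2 with age in Myog only cells, also split anew, was -3.17. The reference to genes of at least 100 kb, the removal of cells with epithelial UMIs and the removal of shared barcodes were added after seeing the data, as were all alternatives for the muscle states, for connective tissue and chondrocyte-like cells with age and for the E15.5 comparison of classes.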
